A study of Mus musculus with 16 samples.

Results

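The ribosomal protein genes described here are the 82 genes of the deposited count table whose symbols begin with Rpl or Rps followed by a digit, or with Rplp, plus Rpsa, at a mean of at least 10 raw counts over 16 libraries. Symbols of the S6 kinases (Rps6k) and of numbered pseudogenes were left out by name. The table lists 23329 genes, and 86 symbols matched the name rule before the count minimum. The members comprise 49 large-subunit and 33 small-subunit symbols. The rule uses symbols and the mean count, and no difference between groups. The member nearest to the minimum from above was Rpl26, at a mean of 22.1 raw counts, and the nearest symbol below it was Rps27, at 3.44 raw counts. Rpl3l, Rpl10l and Rpl39l, which are copies known from muscle and germ cells, were listed at 0 in every library. All 82 members passed the filter on low counts and were tested.

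Ribosomal proteins join ribosomal RNA to form the small subunit, which reads the messenger RNA, and the large subunit, which joins amino acids. Their messenger RNAs are abundant and short, and most are known to begin with a C followed by a run of C and U bases, the 5′ terminal oligopyrimidine (TOP) tract. The kinase mTORC1 controls how well TOP messenger RNAs are translated, and in β-cells the making of insulin depends on this machinery. One symbol, Rps19bp1, belongs to a protein that binds Rps19 and is no ribosomal protein, and Rps4y2 is annotated by RefSeq as a transcribed pseudogene, Rps4l. Both met the rule and were kept.

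The libraries came from BetaTC6, a mouse β-cell line derived from an insulinoma, with a C57BL/6 background in the labels. There were 4 groups of 4 libraries: wild-type cells with DMSO (vehicle), wild-type cells with ivermectin, an antiparasitic drug, and the same pair of treatments in a line labelled P2ry1 knockout. P2ry1 encodes a purinergic receptor. Cells of all 4 groups were kept without glucose and then given 20 mM glucose for 30 min, with the drug or the vehicle, so no group shows basal glucose. The ivermectin dose, the way the knockout was made and the number of clones are not given in the sources used here. The labels do not say whether the 4 libraries of a group came from separate cultures, so the p-values measure the spread between these libraries, which may be technical.

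Library totals were 893288 to 1065003 counts in the wild-type vehicle group and 1361370 to 2013475 in the others. P2ry1 had 81 to 189 expected counts in each library, and its level did not separate the lines (knockout label minus wild type, log2 change −0.17 with vehicle, edgeR adjusted p = 0.246, and −0.11 with ivermectin, edgeR adjusted p = 0.394). All 16 β-cell markers were in the table, and their summed level was 37951 to 47871 CPM (counts adjusted for the total of each library) over the libraries. The 30 hepatocyte markers summed to 1473 to 3326 CPM in wild-type vehicle libraries against 805 to 1268 CPM in the other groups. All 30 reached a mean count of 10 in the wild-type vehicle group. In the wild-type ivermectin group 17 did, and 10 did in each knockout-labelled group. The 8 alpha-cell markers summed to 3015 to 3212 CPM in the lines labelled knockout and 2157 to 2325 CPM in wild type. The 6 delta and PP cell markers summed to 68.8 to 93.3 CPM and 271 to 338 CPM in the same order. In every group only 5 of the alpha-cell markers and 2 of the delta and PP cell markers reached a mean count of 10, so few genes carry these sums. Ttr is on both the hepatocyte and the alpha-cell list. The part of these RNAs in the results below was not tested, except where a fit without the hepatocyte list is given. In bulk libraries fewer cells of a type and less RNA per cell cannot be told apart.

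Per length, the levels of the members spanned a 140.8-fold range. The highest mean level in TPM, a level per transcript length, was that of Rpl41, at 7219 TPM, followed by Rpl38 at 3853 TPM and Rps15 at 3278 TPM. Rpl41 encodes the smallest ribosomal protein, Rpl38 is a large-subunit protein whose loss is known to disturb skeletal patterning in the mouse, and Rps15 sits near the decoding site. The lowest were Rps15a at 51.3 TPM, Rpl7l1 at 53.1 TPM and Rpl26 at 62.1 TPM. Of the 82 members, 52 were at 1000 TPM or more and 7 were under 200 TPM. The low values of Rps15a and Rpl26 carry a limit of the annotation. The deposited file gives Rps15a a length of 4924 bases, far longer than the other members, which lowers its TPM. RSEM also shares reads between near-identical copies, and 15 of the 82 members (18.3%) had an expected count that was not whole in at least 1 library, against 4.19% of 10220 other genes with the same minimum. Rpl34, at a mean of 53.4 raw counts, stood beside its pseudogene symbol Rpl34-ps1 at 330.8, so the split between such copies is uncertain, as it is for Rpl22l1, Rpl26, Rpl30, Rpl31, Rplp2, Rps15a, Rps24 and Rps26, each of which had split reads in at least 12 libraries.

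The start sites of 8 members are printed because the group is known for its TOP tracts, and because these members cover both outcomes of the tests below. Each sequence runs 5′ to 3′ on the transcript strand, from 15 bases before the annotated start to 15 bases from the start on, in RefSeq GRCm38.p6. Capitals mark the longest run of at least 5 C and T bases that begins with a C within 10 bases of the start. Rps18 lies at chr17:33955651-33955680 on the minus strand, Rpl38 at chr11:114668565-114668594 on the plus strand and Rpl22l1 at chr3:28805493-28805522 on the plus strand. Rpl23 lies at chr11:97782425-97782454 on the minus strand and Rps28 at chr17:33824548-33824577 on the minus strand. These 5 were called higher in the line labelled knockout. Rps6 at chr4:86857353-86857382 on the minus strand, Rplp2 at chr7:141447636-141447665 on the plus strand and Rpl41 at chr10:128549154-128549183 on the minus strand were not.
Rps18: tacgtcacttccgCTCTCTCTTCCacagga
Rpl38: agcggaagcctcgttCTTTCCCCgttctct
Rpl22l1: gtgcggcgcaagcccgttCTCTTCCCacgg
Rpl23: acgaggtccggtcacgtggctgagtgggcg
Rps28: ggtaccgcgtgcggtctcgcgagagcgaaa
Rps6: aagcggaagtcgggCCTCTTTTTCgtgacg
Rplp2: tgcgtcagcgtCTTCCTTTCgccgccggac
Rpl41: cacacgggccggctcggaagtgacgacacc

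A tract of this kind stood in the window of 33 of the 61 members that the promoter table covers (54.1%), and of 31.3% of 8660 other tested genes with a window. Of the members called higher in either knockout comparison, 25 of 41 with a window held one (61.0%), and of those called in neither, 8 of 20 (40%). The difference between these shares was not tested. Some called and some uncalled members held a tract, as the sequences of Rps18 and Rps6 show, and it was absent from the window in Rpl23 and Rpl41. A missing tract says only that these letters are not near the annotated start, which can differ from the start used in these cells.

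Between the lines, with vehicle, 37 of the 82 members were higher in the line labelled knockout and none was lower, at an adjusted p under 0.05 in edgeR's quasi-likelihood test over 10822 genes. Of all tested genes, 20.7% passed this test, 9.9% as higher and 10.8% as lower. The median log2 change of the members was 0.21, and that of all tested genes was near 0 (−0.00065). The changes were small, with quartiles of the members at 0.12 and 0.29 on the log2 scale. Both subunits took part, with 20 of the 49 large-subunit and 17 of the 33 small-subunit symbols called, at medians of 0.19 and 0.24.

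The strongest call in both treatments was Rpl23, a large-subunit protein that also binds the p53 regulator Mdm2. Its level was 424, 372, 395 and 395 CPM in wild-type vehicle libraries and 595, 578, 629 and 614 CPM in knockout-labelled vehicle libraries. With ivermectin it was 381, 451, 434 and 496 CPM in wild type and 626, 569, 704 and 699 CPM in the line labelled knockout. No library of one line overlapped with the other. The log2 change was 0.61 ± 0.07 (SE) with vehicle (edgeR adjusted p = 3.12e-08) and 0.56 ± 0.07 with ivermectin (edgeR adjusted p = 4.41e-08).

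**Figure D1:**
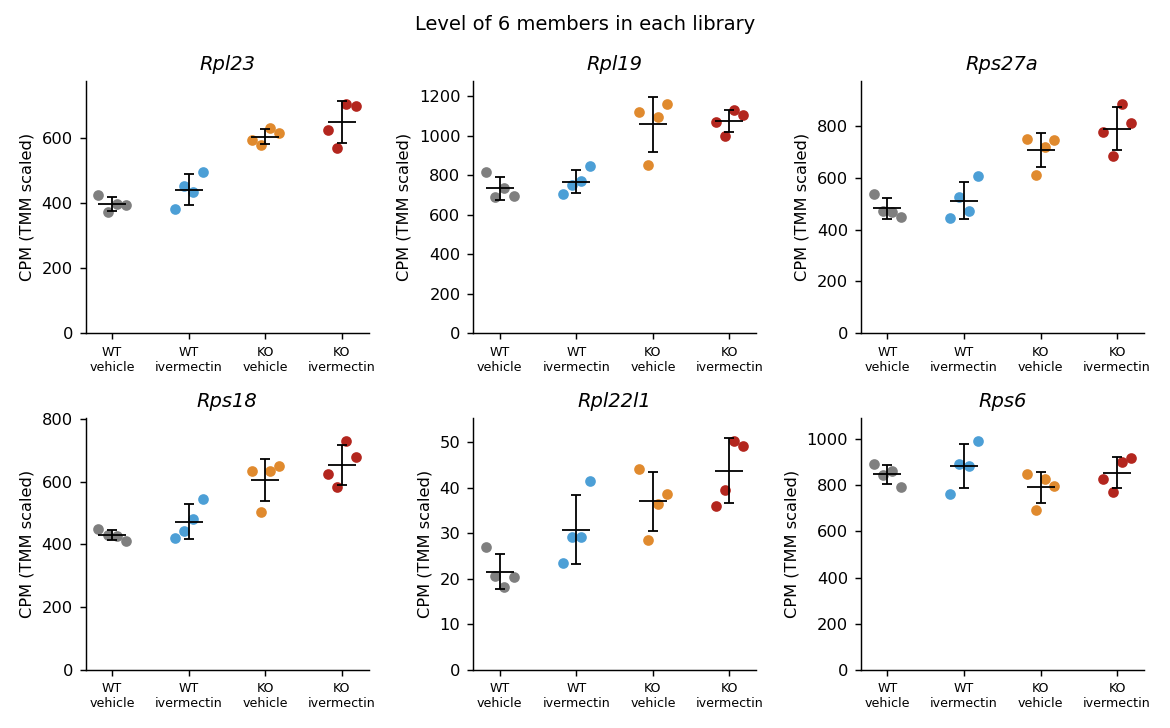
Level in CPM (TMM scaled, linear axis from 0) of 6 members in each of the 16 libraries, with 1 point per library and bars for the mean ± SD of 4. Rpl23, Rpl19, Rps27a and Rps18 stand higher in both groups of the line labelled knockout, Rpl22l1 is low and its lines overlap with ivermectin, and Rps6 overlaps across all 4 groups.

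Rps27a encodes ubiquitin fused to a small-subunit protein. It was at 540, 473, 467 and 450 CPM in wild-type vehicle libraries against 750, 611, 719 and 749 CPM in knockout-labelled ones, a log2 change of 0.55 ± 0.08 (edgeR adjusted p = 2.98e-06). With ivermectin it was at 444, 525, 473 and 607 CPM against 780, 684, 887 and 815 CPM, a log2 change of 0.63 ± 0.08 (edgeR adjusted p = 9.12e-08). The lines did not overlap in either treatment.

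Rpl19, of the large subunit, was at 815, 690, 733 and 696 CPM in wild-type vehicle libraries and at 1121, 853, 1092 and 1160 CPM in knockout-labelled ones. Its log2 change was 0.53 ± 0.07 with vehicle (edgeR adjusted p = 7.53e-07) and 0.49 ± 0.07 with ivermectin (edgeR adjusted p = 1.56e-06). With the trends of length and chromosome described further on removed, it stood at 0.14 (edgeR adjusted p = 0.0198) and 0.05 (edgeR adjusted p = 0.471). Rps18, of the small-subunit head, was at 450, 429, 426 and 410 CPM against 634, 504, 633 and 648 CPM with vehicle, a log2 change of 0.50 ± 0.08 (edgeR adjusted p = 9.58e-06). In both genes the lowest knockout-labelled vehicle library was replicate 2, which still lay above every wild-type vehicle library.

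Rps28 and Rps15 completed the 6 members with the smallest adjusted p with vehicle. Rps28 was at 247, 181, 170 and 187 CPM against 309, 244, 324 and 293 CPM, a log2 change of 0.58 ± 0.09, with knockout-labelled replicate 2 just below wild-type replicate 1. Rps15 changed by 0.45 ± 0.08 and its groups did not overlap. The largest log2 change among called members was that of Rpl22l1, at 0.78 ± 0.19 (edgeR adjusted p = 0.00334), from 27.0, 20.5, 18.2 and 20.4 CPM to 44.1, 28.6, 36.4 and 38.7 CPM. It is also among the members with the fewest counts, and its reads were split with copies in all 16 libraries.

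With ivermectin in both lines, 51 of the 82 members were higher in the line labelled knockout and none was lower, where 27.8% of all tested genes passed, 14% as higher and 13.9% as lower. The median log2 change of the members was 0.25, with 28 of 49 large-subunit and 23 of 33 small-subunit symbols called. Beside Rpl23, Rps27a, Rpl19 and Rps18, the smallest adjusted p belonged to Rps23, next to the decoding centre, and Rpl23a, at the mouth of the tunnel through which new chains leave. Rps23 was at 406, 430, 435 and 494 CPM in wild type and 570, 575, 658 and 651 CPM in the line labelled knockout, a log2 change of 0.48 ± 0.06 (edgeR adjusted p = 3.87e-07). Rpl23a changed by 0.47 ± 0.07 (edgeR adjusted p = 8.76e-07), but stood at −0.01 (edgeR adjusted p = 0.874) once those 2 trends were removed. Neither gene had overlapping groups with ivermectin.

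The comparisons with vehicle and with ivermectin share no library. A total of 34 members were called higher in both, 54 in at least 1 and 28 in neither. The shares of all tested genes called in both or in either were not computed. In the single comparisons 9.9% and 14% of all tested genes were called higher. Rpl6, Rpl10a and Rps29 were called with vehicle alone, at edgeR adjusted p of 0.0392, 0.0479 and 0.0186, and missed the threshold with ivermectin at 0.0687, 0.0507 and 0.0538. These 3 were named because the count is small, after their values were seen. No overlap between the 4 libraries of each line was seen for 14 members with vehicle and 28 with ivermectin, all higher in the line labelled knockout, beside 10.7% and 12.5% of all tested genes that were higher without overlap and 11.4% and 12.8% that were lower.

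**Figure D2:**
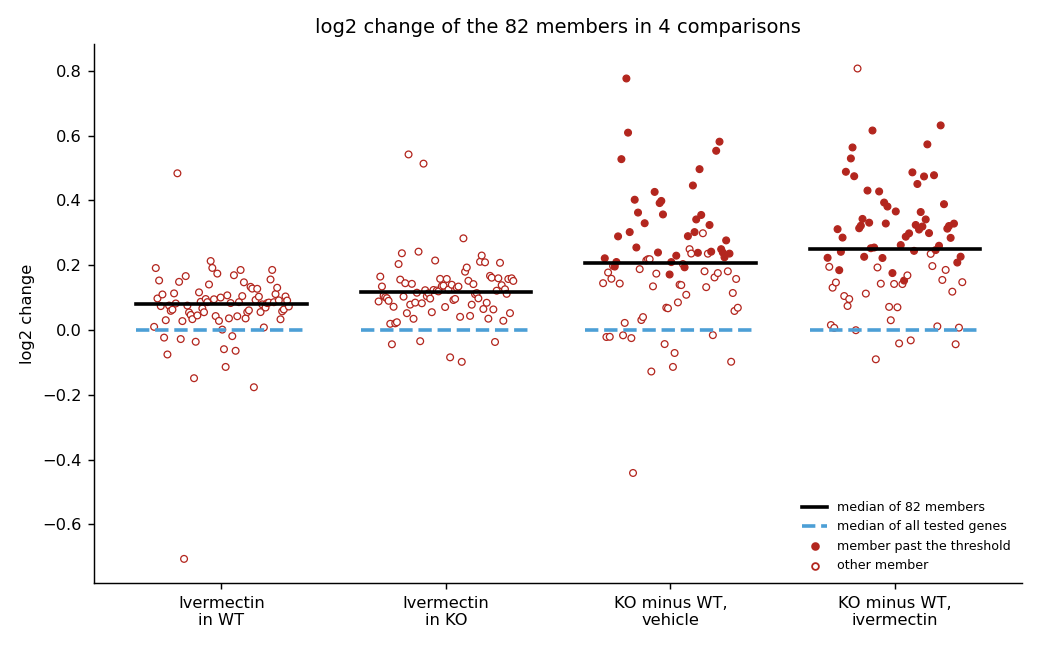
log2 change (vertical axis) of each of the 82 members in 4 comparisons, with 1 point per gene, filled where the edgeR adjusted p is under 0.05. Black lines are the members' medians, at 0.08, 0.12, 0.21 and 0.25 from left to right, and dashed lines are the medians of all tested genes, near 0.

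Several well-known members did not pass the test. Rps6, the small-subunit protein that S6 kinase phosphorylates, was at 891, 843, 862 and 792 CPM in wild-type vehicle libraries and 849, 694, 827 and 795 CPM in knockout-labelled ones. The groups overlapped, with a log2 change of −0.10 ± 0.07 (edgeR adjusted p = 0.333), and of −0.04 ± 0.07 with ivermectin (edgeR adjusted p = 0.664). Rpsa, which is also known as a laminin receptor, changed by 0.07 ± 0.07 and 0.15 ± 0.07 and passed in neither treatment. Rpl41, the member with the highest TPM, was at 1306, 1071, 1153 and 997 CPM against 1338, 956, 1180 and 1271 CPM with vehicle, a log2 change of 0.07 ± 0.10 (edgeR adjusted p = 0.675). Rpl38, the next in level, did pass, at 0.40 ± 0.10 and 0.33 ± 0.09. Its sign turned with the trends of length and chromosome removed, to −0.13 (edgeR adjusted p = 0.157) with vehicle and −0.27 (edgeR adjusted p = 0.00033) with ivermectin.

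The stalk proteins Rplp0, Rplp1 and Rplp2 recruit translation factors to the large subunit. Between the lines, Rplp0 had a log2 change of 0.14 ± 0.05 among vehicle libraries (edgeR adjusted p = 0.0657) and 0.15 ± 0.05 among ivermectin libraries (edgeR adjusted p = 0.0326). Rplp1 had 0.14 ± 0.09 among vehicle libraries (edgeR adjusted p = 0.276) and 0.29 ± 0.08 among ivermectin libraries (edgeR adjusted p = 0.00885). The latter call ended with the length trend removed (−0.02). Rplp2 passed in neither, at 0.20 ± 0.10 and 0.17 ± 0.09. Rplp0, often used as a reference gene, stood at 1708 to 1807 CPM in wild-type vehicle libraries and 1733 to 2118 CPM in knockout-labelled ones, an overlap.

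Within paralog pairs, the calls differed. Rpl22 was at 0.02 ± 0.08 and 0.10 ± 0.08 in the vehicle and ivermectin comparisons and passed in neither, while its copy Rpl22l1 passed in both, at 0.78 ± 0.19 and 0.53 ± 0.16. Rpl36a, on the X chromosome, rose by 0.43 ± 0.10 and 0.43 ± 0.09, and the log2 changes of its copy Rpl36al were 0.17 ± 0.08 (edgeR adjusted p = 0.124) and 0.14 ± 0.08 (edgeR adjusted p = 0.17). Rpl7 rose by 0.21 ± 0.07 and 0.37 ± 0.06, and Rpl7l1 was at −0.07 ± 0.11 and −0.04 ± 0.10. Rps4x was higher in the line labelled knockout by 0.28 ± 0.07 in each comparison. Rps4y2 was at 0.18 ± 0.09 (edgeR adjusted p = 0.144) and 0.12 ± 0.08 (edgeR adjusted p = 0.291). The difference within a pair was not tested.

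Of the genes whose copies were absent from the members, Rpl39 and Rpl37 were higher in the line labelled knockout in both treatments. With vehicle the log2 changes were 0.36 ± 0.09 and 0.24 ± 0.09. With length and chromosome removed, Rpl37 stood at −0.01 with ivermectin. Rpl10, near the site of peptide bond formation, passed with ivermectin (0.22 ± 0.05, edgeR adjusted p = 0.00199) and missed the threshold with vehicle (0.14 ± 0.05, edgeR adjusted p = 0.0572). Its call with ivermectin ended with length and chromosome removed (−0.0068). Rpl3 and Rps27l passed in neither. Rps15a rose by 0.30 ± 0.08 and 0.31 ± 0.07. Rpl26 gave 0 to 33.6 CPM with large spread in every group, too few counts to show a difference. The non-ribosomal Rps19bp1 passed with ivermectin alone (0.57 ± 0.14, edgeR adjusted p = 0.00231).

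The count with vehicle rested on single libraries. It was 21 without knockout-labelled vehicle replicate 1, 24 without replicate 4 of that group, and 23 and 24 without wild-type vehicle replicates 2 and 4. These are 25.6% to 29.3% of the members, beside 16.8% to 17.9% of all genes tested in the same fits, and the members' median log2 change was 0.18 to 0.19 there. Without knockout-labelled vehicle replicate 2 it was 53, where 21.4% of all genes were called, and without wild-type vehicle replicate 1 it was 44, where 18.3% were. With log2 Alb CPM as a covariate, a term that nearly separates wild-type vehicle from the rest (mean Alb level 579 CPM there and 38.9 CPM in knockout-labelled vehicle libraries), 12 members were called, where 3.72% of all genes were, and the members' median was 0.36. Leaving the hepatocyte list, Rn45s and Lars2 out before scaling gave 38 and 53 calls, where 20.6% and 28.2% of all genes were called.

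Under 600 bases, the median shift of other transcripts was close to that of the members, and from 600 to 1000 bases it was smaller. The members' median effective length (the transcript length that reads can start from) was 496 bases, against 2710 for the other tested genes, and 68 of the 82 were under 1000 bases. With vehicle, the median log2 change was 0.22 for the 20 members under 300 bases and 0.21 for 79 other genes of that length, and 0.21 for 31 members and 0.22 for 324 other genes of 300 to 600 bases. With ivermectin the same pairs were 0.26 and 0.26, then 0.30 and 0.26. From 600 to 1000 bases the 17 members stood at 0.22 and 0.28, and 674 other genes at 0.13 and 0.19. At 4000 bases or more, 2917 other genes had medians of −0.09 with vehicle and −0.13 with ivermectin. Among genes under 1000 bases whose average log2 CPM reached 7, 32 of 62 members (51.6%) and 34.7% of 216 non-members were called higher with vehicle. With ivermectin these were 42 of 62 members (67.7%) and 50.9% of the non-members. None of these members was called lower, and 6.48% and 4.63% of the non-members were. The difference between these shares was not tested.

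**Figure D3:**
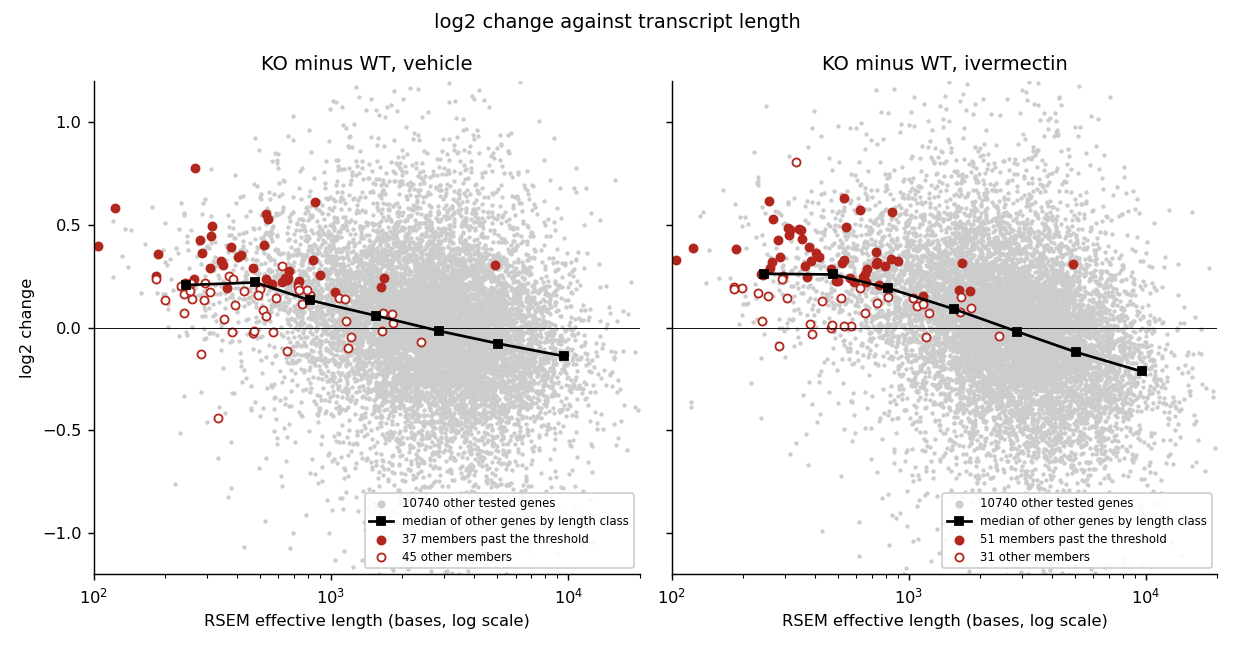
log2 change between the lines (vertical axis, genes with the largest changes fall outside it) against RSEM effective length in bases (log scale), with vehicle and with ivermectin. Grey points are other tested genes, black squares their median by length class, and red points the members, which scatter around the black line at the short end where it lies at about 0.2.

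When a trend with length, fitted to the non-members of each library, was removed, the members' median fell to 0.03 with vehicle and 0.01 with ivermectin. The calls became 23 with vehicle, 14 higher and 9 lower, and 26 with ivermectin, 13 higher and 13 lower, where 20.5% and 25.3% of all genes were called. Members lay on both sides of the trend of the other genes. Of the members called before, 3 of 37 with vehicle and 8 of 51 with ivermectin turned sign in this fit. Among those described above they were Rps29 with vehicle (−0.025), and Rpl38 (−0.06) and Rplp1 with ivermectin. RSEM's own effective lengths as an offset gave 38 and 56 calls, where 20.6% and 27.9% of all genes were called. That offset was centred per gene, so it adjusts only for length differences between libraries. It cannot remove a trend across genes of different length. What produced the trend with length was not tested.

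**Figure D4:**
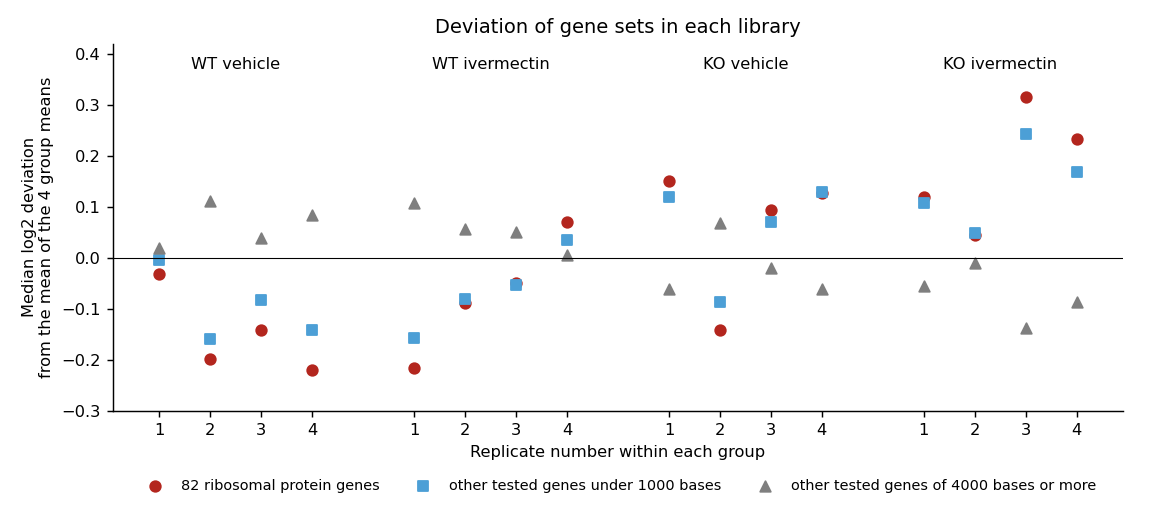
Median log2 deviation of 3 gene sets (vertical axis) in each of the 16 libraries, ordered by group and replicate number. The members (circles) and other short genes (squares) move together from library to library, including knockout-labelled vehicle replicate 2 at −0.14 and −0.09, while long genes (triangles) move the other way.

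Library by library, the members followed the other short genes within groups too. The members' median deviation, in log2 units from the mean of the 4 group means, was −0.03, −0.20, −0.14 and −0.22 in wild-type vehicle libraries and −0.22, −0.09, −0.05 and 0.07 in the wild-type group given ivermectin. It was 0.15, −0.14, 0.09 and 0.13 in knockout-labelled vehicle libraries and 0.12, 0.04, 0.32 and 0.23 in knockout-labelled ivermectin libraries. Knockout-labelled vehicle replicate 2 thus lay among the wild-type libraries, and wild-type ivermectin replicate 4 above the lowest knockout-labelled ones. For 1077 non-members under 1000 bases, those same 2 libraries stood at −0.09 and 0.03. Wild-type ivermectin replicate 4 also held the highest Rn45s share, 2.99% of its counts against 0.14% to 0.60% elsewhere.

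The members together took 3.71% ± 0.20 (SD, n = 4) of the counts of wild-type cells with vehicle and 3.87% ± 0.24 with ivermectin. In the line labelled knockout they took 4.20% ± 0.33 with vehicle and 4.50% ± 0.29 with ivermectin. With vehicle the lines overlapped, because the lowest knockout-labelled library held 3.71% and the highest wild-type library 3.98%. With ivermectin they did not, the highest wild-type share being 4.11% and the lowest knockout-labelled share 4.15%. That gap closed with Rn45s and the hepatocyte list left out of the total, when wild-type replicate 4, the library rich in Rn45s, held 4.24% and knockout-labelled replicate 2 held 4.16%. Large-subunit symbols took 2.28% and small-subunit symbols 1.42% in the wild-type vehicle group, and 2.55% and 1.65% in the knockout-labelled vehicle group.

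Changes between the lines also differed by chromosome, among the members and among other genes. On chromosome 11, 880 other tested genes had a median log2 change of 0.21 with vehicle and 0.23 with ivermectin, with 29.5% and 37.7% called higher, and 6 of the 7 members there were called in each treatment, at medians of 0.40 and 0.49. Rpl23, Rpl19, Rps27a, Rpl23a and Rpl38 lie on it. Chromosome 16 was low, at −0.24 and −0.22 for 338 other genes, and its 2 members were not called, at medians of −0.08 and −0.05. Of those other genes, 0.296% and 1.18% were called higher, and 93 and 103 genes were called lower. On chromosome 4, which carries Rps6 and Rpl22, other genes stood at −0.14 and −0.15, and none of 5 members was called. Of 698 other genes there, 2.29% and 4.15% were called higher, and 143 and 175 genes were called lower. Chromosome 7 held 14 members, 9 and 11 of them called, with other genes at 0.06 in both treatments and 10.6% and 16.6% of them called higher. On chromosomes 1, 3, 13 and X, by contrast, other genes lay between −0.0032 and 0.041 with ivermectin. All of the 3, 3, 1 and 4 members there were called with ivermectin, and 3, 2, 1 and 3 of them with vehicle. Of the other genes there, 13.6%, 13.7%, 18.6% and 14.2% were called higher with ivermectin, and 10.8%, 9.09%, 10.1% and 10.1% with vehicle. On chromosome 9, with other genes at −0.0097 and −0.013, none of 7 members was called with vehicle and 3 were with ivermectin. On chromosome 6 none and 1 of 2 were. Of the other genes, 4.36% and 8.17% were called higher on chromosome 9, and 6.91% and 9.96% on chromosome 6. With the chromosome medians alone removed, 32 members were called with vehicle and 53 with ivermectin, all higher, at medians of 0.19 and 0.25, where 17.2% and 23.6% of all genes were called. Among them were 21 of the 37 and 43 of the 51 members called without that step. DNA copy number in these lines was not tested.

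**Figure D5:**
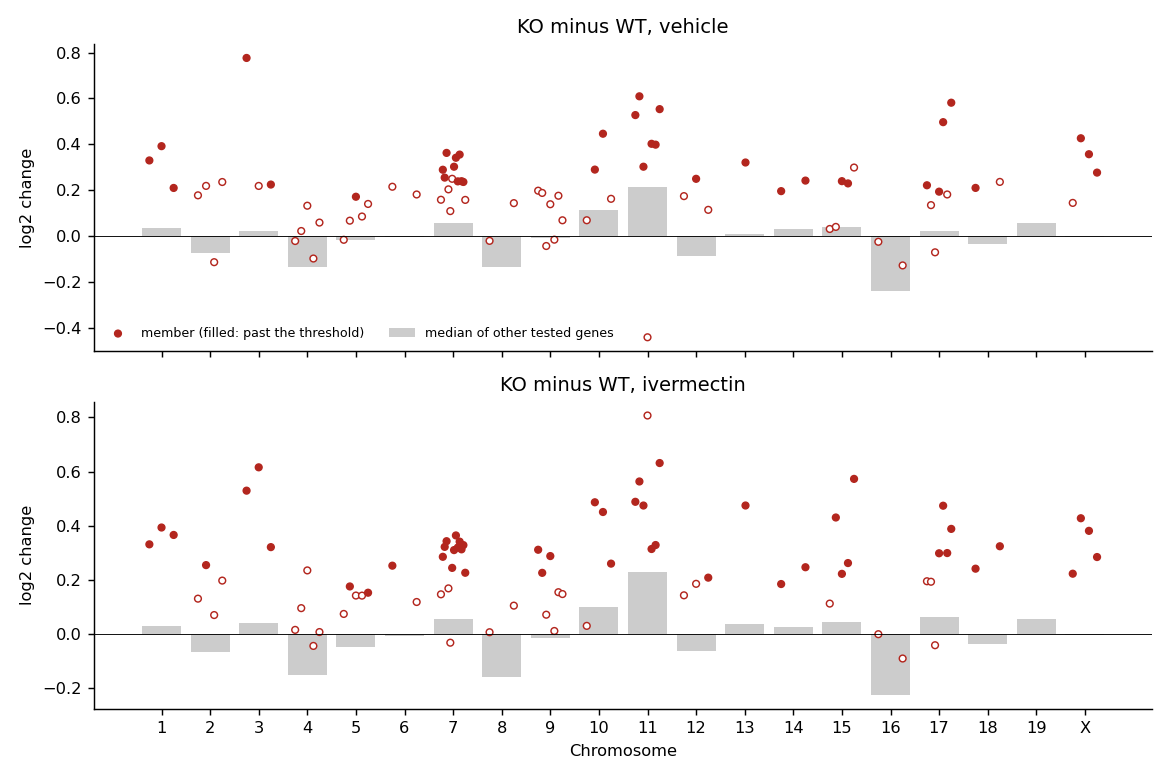
log2 change between the lines (vertical axis) by chromosome (horizontal axis), with vehicle above and ivermectin below. Bars are the median of the other tested genes and points are members, filled past the threshold. Bars and members are both high on chromosome 11 and both low on chromosomes 4, 8 and 16. The 3 members on chromosome 3 have medians of 0.22 with vehicle and 0.53 with ivermectin, beside bars of 0.02 and 0.04. Rpl22l1 and Rpl34 are among them, with few counts that are split with copies.

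With both the length trend and the chromosome medians removed, 12 members were called with vehicle, 8 higher and 4 lower, and 16 with ivermectin, 8 and 8. The members' medians were 0.03 and 0.02, and 16.4% and 20.0% of all genes were called, so the members' shares of 14.6% and 19.5% were near the background. Rpl23, Rps15a, Rps18 and Rps27a were higher in both treatments. Rpl23 stood at 0.28 (edgeR adjusted p = 9.99e-05) and 0.18 (edgeR adjusted p = 0.0076), Rps18 at 0.25 and 0.14, and Rps27a at 0.17 and 0.19. Rps15a stood at 0.33 and 0.39, but this fit treats it as a transcript of 4924 bases. Rpl22l1 was higher with vehicle alone, at 0.52 (edgeR adjusted p = 0.0266), and stood at 0.17 with ivermectin (edgeR adjusted p = 0.398). Rpl41, Rps25 and Rps26 were lower in both, with Rpl41 at −0.30 and −0.37. Rps26 had been called higher with ivermectin before that step (0.26 ± 0.08, edgeR adjusted p = 0.0152) and stood at −0.15 (edgeR adjusted p = 0.047) after it. Rps25 and Rps26 are named because few members fell, after their values were seen. Of the 37 members called higher with vehicle before the removal, 7 were still called, 25 stayed above 0 without passing and 5 turned sign. Of the 51 called with ivermectin, 7 were still called, 30 stayed above 0 and 14 turned sign, of which Rpl38 and Rps26 passed as lower. Rpl23a turned sign in both treatments, and Rps28 (−0.03), Rplp1 (−0.03), Rpl10 and Rpl37 with ivermectin.

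Ivermectin against vehicle called no member in either line. In wild type 66 of 10822 genes passed (0.61%), and in the line labelled knockout no gene did (0%). At an unadjusted p under 0.05 there were 6 members in wild type and 25 in the line labelled knockout, of 565 and 822 genes, and DESeq2 called none in either. The members' median log2 change was 0.08 in wild type, with 71 of 82 above 0, and 0.12 in the line labelled knockout, with 77 above 0. Leaving out 1 library moved these medians between 0.029 and 0.125, and between 0.057 and 0.168. Other genes of 300 to 600 bases had medians of 0.03 and 0.10. The smallest adjusted p was 0.852 in wild type, for Rps29 (0.19 ± 0.08) and Rpl22l1 (0.48 ± 0.21), and 0.595 in the line labelled knockout, shared by 8 members, of which the smallest unadjusted p belonged to Rps23 (0.21 ± 0.06), Rps12 (0.28 ± 0.09) and Rps2 (0.21 ± 0.07). Without overlap, 3 members were higher with ivermectin in the line labelled knockout, where 1.89% of all genes were, and none in wild type, where 1.4% were. A member's log2 change had a median SE of 0.08 in wild type, so changes of this size were not detectable one gene at a time.

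The response to ivermectin did not differ between the lines for any member by the interaction test (0 of 82 called, 24 of 10822 genes, 0.222%). One member, Rpl7a, had an unadjusted p under 0.05 (0.18 ± 0.09, edgeR adjusted p = 0.964), of 554 genes, and DESeq2 called none. The median SE was 0.11, wider than the members' median difference of 0.03, and a missed threshold does not show equal responses.

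Other genes of the translation machinery were read beside the members. Higher and lower, or a rise and a fall, refer here to the line labelled knockout against wild type, within the treatment named. Of 76 tested genes of the mitochondrial ribosome (Mrpl and Mrps symbols, median effective length 834 bases), 11 were higher with vehicle and 34 with ivermectin, and none was lower, at medians of 0.21 and 0.30. These were 14.5% and 44.7% of the list, beside 9.9% and 14% of all tested genes called higher. Removing length and chromosome gave 4 higher and 1 lower with vehicle, and 15 higher and none lower with ivermectin, that is 5.26% and 19.7% of the list called higher, beside 7.44% and 9.96% of all genes in that fit. Mrps12 was at a mean of 53.3 CPM in wild-type vehicle and 86.4 CPM in knockout-labelled vehicle libraries (0.70 ± 0.13, edgeR adjusted p = 0.000104) and stayed higher after removal, at 0.46.

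Among 28 tested genes known for TOP starts but outside the members, 9 were higher and 1 lower with vehicle, and 11 and 2 with ivermectin, beside the same 9.9% and 14% of all tested genes called higher. Removing length and chromosome gave 1 higher and 3 lower with vehicle, and 3 and 2 with ivermectin, that is 3.57% and 10.7% called higher. Eef2, the elongation factor that moves the ribosome along, rose by 0.28 ± 0.04 and 0.24 ± 0.04, and stayed higher at 0.18 and 0.17 after removal of length and chromosome. Fau, which encodes ubiquitin-like protein fused to a small-subunit protein, rose by 0.37 ± 0.08 and 0.36 ± 0.08, and Tpt1 by 0.22 ± 0.06 and 0.32 ± 0.05. Npm1, a nucleolar protein that is also on the list of ribosome biogenesis below, rose by 0.20 ± 0.06 and 0.33 ± 0.06. These 3 lost both calls after removal, at 0.12 and 0.06 for Fau, 0.04 and 0.08 for Tpt1 and −0.09 and −0.0051 for Npm1. Nap1l1 and, with ivermectin, Eif4b were lower (Nap1l1 −0.24 ± 0.06 and −0.19 ± 0.05, Eif4b −0.16 ± 0.06), and after removal Nap1l1 was still called and Eif4b was not (−0.13, edgeR adjusted p = 0.092).

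Of 91 tested genes of ribosome biogenesis, 9 were higher and 3 lower with vehicle, and 21 and 4 with ivermectin, at medians of 0.03 and 0.05. With vehicle the share called higher was that of all tested genes, 9.9%, and with ivermectin 14% of all tested genes were higher. Rrp1, a nucleolar factor, rose by 0.30 ± 0.06 and 0.36 ± 0.06, and Nhp2, a protein of the RNA-modifying box H/ACA particles, by 0.59 ± 0.13 and 0.67 ± 0.12. Taf1c, a subunit of the RNA polymerase I factor SL1, was lower in the line labelled knockout by 0.54 on the log2 scale among vehicle libraries. Wdr43 and Rrn3 were lower in that line by 0.37 and 0.30 among ivermectin libraries. After removal of length and chromosome, 3 were higher and 2 lower with vehicle, and 6 and 4 with ivermectin, where the shares called higher, 3.30% and 6.59%, lay under those of all genes. Rrp1 and Wdr43 were still called there, while Nhp2 stood at 0.25 and 0.26, Taf1c at −0.38 and Rrn3 at −0.02, and none of these 3 passed.

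Of 32 tested genes that signal to translation, 5 were higher and none lower with vehicle, and 4 and 2 with ivermectin. The shares called higher were 15.6% and 12.5%, beside 9.9% and 14% of all tested genes. After removal of length and chromosome they were 9.38% in both treatments, beside 7.44% and 9.96%. Eif4ebp1, the mTORC1 target that restrains cap-dependent translation, was at mean levels of 85.5 and 83.2 CPM in wild type and 119 and 121 CPM in the line labelled knockout. It rose by 0.48 ± 0.11 and 0.55 ± 0.10, and stood at 0.48 and 0.52 after removal of length and chromosome. Rps6kb1, an S6 kinase gene, was higher in that line by 0.34 ± 0.13 among vehicle libraries (edgeR adjusted p = 0.0496) and by 0.43 ± 0.12 among ivermectin libraries. After removal it passed among ivermectin libraries alone (0.22 and 0.33). Rps6ka3 and Mlst8 were lower in the line labelled knockout by 0.53 and 0.36 among ivermectin libraries. No gene of these 4 lists was called for ivermectin in either line or for the interaction.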

How the data were processed

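RNA from 16 libraries of a mouse β-cell line was selected for polyadenylated RNA and read from both ends for 42 nucleotides, per the labels' protocols. The submitters' processing notes name bcl2fastq, STAR 2.7.2b, RSEM 1.3.3, DESeq2 1.32.0 and mm10, without their roles. The authors deposited RSEM expected counts, TPM and effective lengths (in bases) for each library, per the file headers, and a table of whole-number counts. Of its 373264 values, 0 differed from the expected count rounded down. Human single-cell files were not used. Values of some single genes are not reported here.

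Expected counts were rounded to whole numbers. Genes were kept with filterByExpr (minimum count 10, minimum total 15), scaled with TMM and tested with edgeR 4.0.16 in R 4.3.3 (quasi-likelihood, 1 mean per group over the 16 libraries, Benjamini-Hochberg over 10822 genes, threshold 0.05). Standard errors come from the log2 change and its F statistic. CPM are TMM scaled, except for shares and marker sums, which use library totals. The members, the gene lists and the tests were chosen with earlier results of these data known. Named members are the 6 smallest adjusted p in each direction per comparison, members with a paralog, the 3 highest and 3 lowest in TPM, Rpsa, Rplp0, Rplp1, Rplp2, Rps6 and Rps27a, and those next to the count minimum. Members named outside this rule were chosen after their values were seen. From the other lists, up to 3 genes in each direction per comparison were eligible. Removal of the length trend (lowess, span 0.3, on non-members) and of chromosome medians was added after seeing the data. Chromosomes and start sites came from RefSeq GRCm38.p6, matched by symbol (Rps3a and Rps4y2 by transcript), and 61 of 82 members had a start window. The fits were checked on simulated counts with known changes. No mitochondrially encoded gene is in the tables, so no share of it is given.

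In each pair of replicates the counts differed beyond sampling noise (chi-squared over its degrees of freedom, 1.17 to 6.81). Values of 5.05 to 6.81 came from the pairs with wild-type ivermectin replicate 4, the library rich in Rn45s. The other pairs lay at 1.17 to 2.18. A count of 0 allows up to 1.49 to 3.36 CPM, taking 3 counts as the limit. That limit covers counting error only, since the reads carry no molecular identifiers.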

Additional observations from a re-analysis of the deposited data

Results flagged for a closer look

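Among 164 checks of groups of 4 libraries (the members' share of counts, their median deviation and 39 named members), 12 held a library whose distance to the nearest of the others was too large a part of the group's range by Dixon's test at the 95% level. Chance alone flags about 1 in 20 such groups.

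Of the 12, 6 concerned knockout-labelled vehicle replicate 2, which was low in each. The members' share of counts there was 3.71%, against 4.30% to 4.42% in the others of its group. Rps18 was at 504 CPM against 633 to 648 CPM, Rps23 at 468 CPM against 548 to 556 CPM, Rpl23a at 604 CPM against 696 to 708 CPM, Rpl22 at 222 CPM against 272 to 279 CPM and Rps12 at 512 CPM against 648 to 663 CPM. These 6 values come from 1 library and are not independent of each other. Without it, 53 members were called with vehicle in place of 37, where 21.4% of all genes were, in place of 20.7%.

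The others were spread over the groups. Rpl36al was at 441 CPM in knockout-labelled ivermectin replicate 2, against 512 to 523 CPM, and in replicate 3 of that group Rps27l was at 98.0 CPM, against 68.6 to 72.5 CPM, and Rps29 at 427 CPM, against 359 to 366 CPM. Rpl37 was at 261 CPM in knockout-labelled vehicle replicate 1, against 215 to 220 CPM. Rplp0 was at 1698 CPM in wild-type ivermectin replicate 1, against 1906 to 1937 CPM, and Rplp2 at 280 CPM in wild-type vehicle replicate 4, against 317 to 319 CPM.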

How the results depend on the processing

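Alternatives that left the count of called members within 1.5 times, all calls higher, were DESeq2 (29 with vehicle and 45 with ivermectin, beside 15.6% and 20.6% of all genes), other scalings, a stricter filter, fits of 8 libraries, RSEM's lengths centred per gene, the whole-number table, the hepatocyte list left out and thinning (35 and 40, beside 16.6% and 19.3%). Without a low-count filter the counts were 54 and 61, beside 15.0% and 17.5%, and 1 member was called for ivermectin in the line labelled knockout. The replicate number as a replicate block gave 43 and 55 calls, beside 21.1% and 28.1% of all genes. Same-numbered libraries of different groups correlated weakly (−0.05 to 0.14, 2 of 24 over 0.1). Their median was 0.020, against −0.0064 for different numbers, and 6 of 16 libraries were closest to their own number. Such values do not settle whether the libraries were paired. An Alb covariate gave 12 calls with vehicle and a median of 0.36. Leaving out 1 library gave 21 to 53 calls with vehicle and 38 to 61 with ivermectin. In the fits with the fewest and the most calls, 17.9% and 21.4% of all genes were called with vehicle, and 22.3% and 26.6% with ivermectin. With the length trend removed, 23 and 26 members were called, at medians of 0.029 and 0.015, and with chromosome medians removed as well, 12 and 16, at 0.031 and 0.021. The share of counts differed between the lines by 0.49 percentage points with vehicle and 0.63 with ivermectin, and as a share of summed TPM by 1.22 and 1.302, with 0.42 in place of 0.17 for ivermectin in wild type. The interaction over 8 libraries was not run.

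Of 72 values of named members whose sign turned, 58 had not passed the test to begin with and 14 were calls, of Rpl23a, Rpl38, Rps28, Rplp1, Rpl10, Rpl37, Rps26, Rps29 and Rps12. With the length trend removed, the comparison of lines gave Rpl3 at −0.061, Rpl10 at −0.025, Rpl22 at −0.020, Rpl36al at −0.056, Rps27l at −0.072, Rpl41 at −0.18, Rplp1 at −0.11, Rplp2 at −0.054, Rps29 at −0.025 and Rps26 at −0.093 with vehicle. It gave Rpl3 at −0.015, Rpl36al at −0.14, Rps4y2 at −0.082, Rps27l at −0.16, Rpl41 at −0.28, Rpl38 at −0.060, Rplp1 at −0.021, Rplp2 at −0.15, Rpl6 at −0.0017, Rpl10a at −0.018, Rps29 at −0.15, Rps25 at −0.24, Rps26 at −0.058 and Rpl7a at −0.14 with ivermectin. With chromosome medians removed as well, it gave Rpl23a at −0.12, Rpl3 at −0.081, Rpl10 at −0.0090, Rps27l at −0.065, Rpl41 at −0.30, Rpl38 at −0.13, Rplp1 at −0.10, Rplp2 at −0.10, Rps26 at −0.20 and Rps12 at −0.052 with vehicle. It gave Rps28 at −0.026, Rpl23a at −0.012, Rpl3 at −0.039, Rpl10 at −0.0068, Rpl36al at −0.079, Rpl37 at −0.013, Rps4y2 at −0.066, Rps27l at −0.17, Rpl41 at −0.37, Rpl38 at −0.27, Rplp1 at −0.028, Rplp2 at −0.17, Rpl10a at −0.060, Rps29 at −0.089, Rps25 at −0.24, Rps26 at −0.15 and Rpl7a at −0.069 with ivermectin. With chromosome medians alone removed, it gave Rpl41 at −0.042 and Rps6 at 0.040 with vehicle, and Rpl41 at −0.061 and Rps6 at 0.11 with ivermectin. Rpl7l1 with vehicle stood at 0.14 under the Alb covariate and 0.055 after thinning, and Rps25 at 0.23 and 0.011, and at 0.015 without a low-count filter. With ivermectin Rps25 stood at −0.0018 under the stricter filter. Leaving out 1 library moved Rpl22 between −0.026 and 0.093 and Rps25 between −0.064 and 0.057 with vehicle. With ivermectin it moved Rpl41 between −0.071 and 0.15, Rpl7l1 between −0.096 and 0.069, Rps25 between −0.036 and 0.081 and Rps6 between −0.11 and 0.016. The cause was not tested.

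At these depths a member's log2 change had a median SE near 0.08, so shifts of about 0.1 in single genes stay below detection.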
